A study of Homo sapiens with 3 samples.

Results

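Fibrinogen and other genes whose products are made mainly by the liver were examined in RNA-seq libraries of lung epithelial cells. The 10 genes were given by symbol: FGA, FGB, FGG, FGL1, SERPINA1, SERPINA3, C3, CFB, TF and CPS1. All 10 were listed in at least 1 library, among 18856 genes listed in the series. The values used here are of 1 LIEA library of HBE, 1 LIEA library of A549 and 1 Smart-seq2 library of HBE. The study also describes a biological replicate of LIEA of HBE, LIEA from a small number of HBE cells, and bulk mRNA-seq of both lines. Those were not used here. HBE are human bronchial epithelial cells and A549 is a lung adenocarcinoma cell line labelled as alveolar basal epithelium. The labels name no treatment and no engineered allele for either line. Each of the 3 libraries used here started from 10 pg of polyA+ mRNA that had been diluted from a bulk preparation. LIEA (low-input, equal-amplification) fragments the mRNA, ligates adapters and amplifies the cDNA library by a limited number of PCR cycles. Single library molecules are then amplified on beads for Ion Torrent sequencing. Smart-seq2 copies mRNA from the polyA tail and amplifies the cDNA before an Illumina library is made.

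Each condition had 1 library among the values used here, so no test between conditions is possible. Every difference below is a difference between 2 libraries. The values are rpkM, reads per kilobase of transcript and 1000000 mapped reads, deposited on the log2 scale. The number of mapped reads was recovered from the values as 4605855 (HBE, LIEA), 4154060 (A549, LIEA) and 9845150 (HBE, Smart-seq2). Reads per gene were recovered in the same way, and intervals are exact Poisson intervals on these reads at the 95% level. For a ratio of reads the interval is the exact conditional binomial one. PCR copies are not separate molecules, so the intervals cover counting error and nothing else. A gene that is not listed had no reads, which allows up to 3 reads, and 3 reads were used as the floor of each library. A fold given as "at least" sets the library without reads at this floor and takes the other library's value without its counting error.

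Fibrinogen is the soluble plasma protein that thrombin turns into the fibrin of a clot. It is built of pairs of an alpha, a beta and a gamma chain, encoded by FGA, FGB and FGG, and hepatocytes secrete it in large amounts. The products of SERPINA1 and SERPINA3, complement C3 and factor B are also acute phase proteins of the liver. They respond to interleukin-6 and interleukin-1, and lung epithelium is known to make several of them in inflammation. Transferrin carries iron in plasma. CPS1 is not secreted: it is the mitochondrial enzyme that commits ammonia to the urea cycle.

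The 3 fibrinogen genes lie side by side on chromosome 4. On GRCh37 (the hg19 build of the labels), FGB is at chr4:155484163-155493959 on the plus strand. FGA is at chr4:155504278-155511894 and FGG at chr4:155525286-155534119, both on the minus strand. The gap between FGB and FGA is 10318 bp and that between FGA and FGG is 13391 bp, so the cluster spans 49957 bp. Their promoters are shown because the 3 genes were high in A549 together. The windows are RefSeq sequence on GRCh38.p14, from 250 bases before an annotated start of the gene to 50 bases from it. Such a start need not be the gene start given above on GRCh37. Each window is written 5' to 3' on the strand of the gene. They are chr4:154590693-154590992 for FGA, chr4:154562730-154563029 for the upstream start of FGB and chr4:154612607-154612906 for FGG. Capitals mark letters that match, on either strand, CTGGGAA (the core of interleukin-6 response elements), TTGCNNAA (a C/EBP-type site) or TATAAA (a form of the TATA box). The letters searched were chosen with these sequences in view, and both strands were searched.
FGA: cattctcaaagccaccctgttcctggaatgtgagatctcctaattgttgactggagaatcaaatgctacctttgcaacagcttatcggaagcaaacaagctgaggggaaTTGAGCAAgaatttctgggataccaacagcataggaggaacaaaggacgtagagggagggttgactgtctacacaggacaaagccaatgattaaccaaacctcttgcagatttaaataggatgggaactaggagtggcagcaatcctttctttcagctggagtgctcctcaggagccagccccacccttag
FGB: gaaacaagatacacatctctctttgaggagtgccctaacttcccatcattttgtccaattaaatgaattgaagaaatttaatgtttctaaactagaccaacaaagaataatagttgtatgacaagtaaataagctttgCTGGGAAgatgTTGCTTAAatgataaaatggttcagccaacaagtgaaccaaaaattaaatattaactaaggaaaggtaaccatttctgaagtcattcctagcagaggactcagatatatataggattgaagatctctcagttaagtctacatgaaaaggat
FGG: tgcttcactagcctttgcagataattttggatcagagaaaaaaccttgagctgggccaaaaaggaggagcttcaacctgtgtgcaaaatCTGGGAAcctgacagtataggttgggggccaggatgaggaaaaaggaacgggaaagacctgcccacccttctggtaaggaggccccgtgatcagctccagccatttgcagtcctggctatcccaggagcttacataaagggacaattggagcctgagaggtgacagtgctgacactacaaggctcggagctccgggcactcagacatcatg

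The interleukin-6 letters stood at -112 in FGB and at -161 in FGG, against 10.8% of all 35116 windows of this length. They were not in the window of FGA. Positions are counted from the gene start that each window uses. The C/EBP-type letters stood at -141 in FGA, on the strand opposite to the one printed, and at -101 in FGB, against 10.5% of all windows. The exact letters TATAAA, present in 11.5% of all windows, were in none of the 3 printed windows. Other forms of the TATA box were not searched. A further window of FGB, at its other start, held the interleukin-6 letters at -143 and the C/EBP-type letters at -132. Of the other genes, 1 of 2 windows of TF held the C/EBP-type letters, 1 of 3 windows of CPS1 the interleukin-6 letters and the window of CFB the letters TATAAA. The windows of SERPINA1 and SERPINA3 held no match. Windows were found for 8 of the 10 genes, without FGL1 and C3. These are matches of letters and not sites shown to be bound.

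The first question was how the levels of these genes differ between A549 and HBE when both are measured by LIEA. All 10 genes were listed in A549, 8 of them with at least 10 reads, the study's criterion for a quantified gene. In LIEA of HBE 6 were listed and 4 had at least 10 reads, and in Smart-seq2 of HBE 7 were listed and 5 had at least 10 reads. Of listed genes in general, 75.1 to 78.2% had at least 10 reads. The genes together took 657 reads per 1000000 mapped reads (RPM) in A549, 531 RPM in HBE by LIEA and 184 RPM in HBE by Smart-seq2. In HBE most of this was C3, with 504 RPM by LIEA and 157 RPM by Smart-seq2. In A549 it was spread over FGA with 200, CPS1 with 163, C3 with 110, FGB with 71.0 and FGG with 62.6 RPM.

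**Figure D1:**
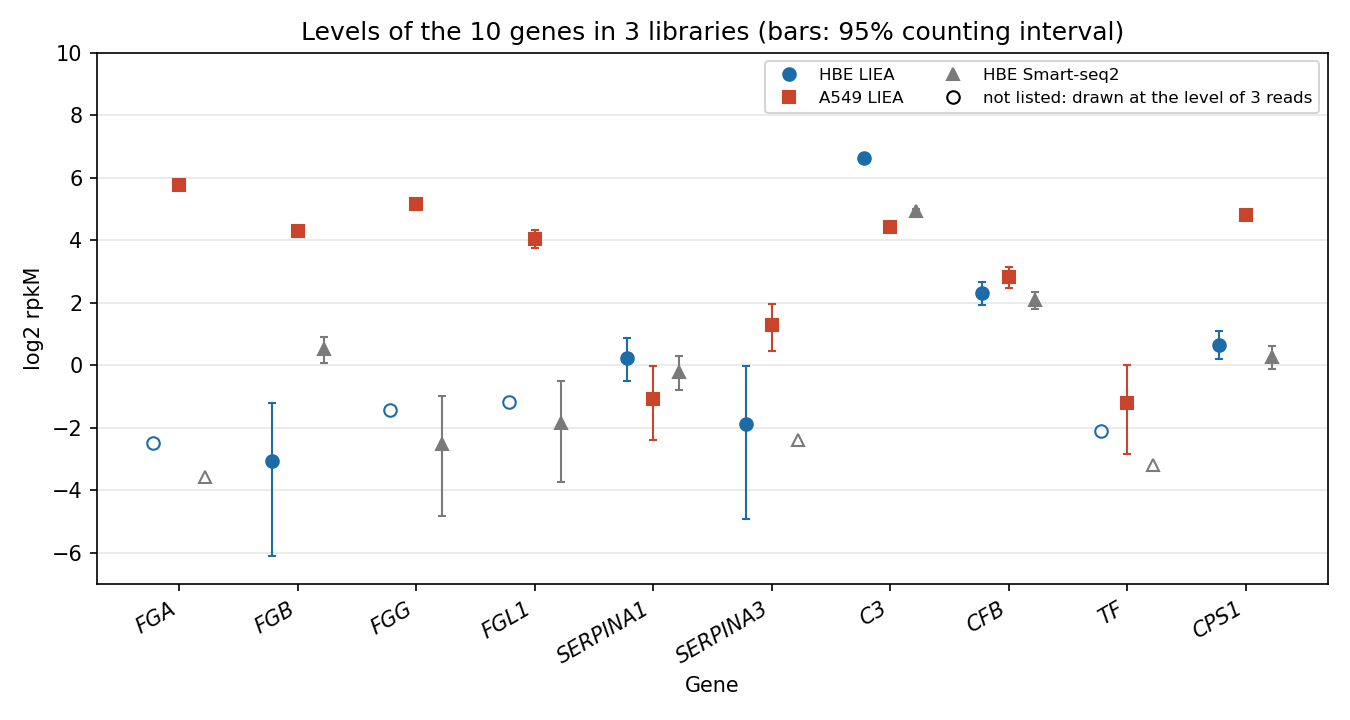
Level of each of the 10 genes on the log2 rpkM scale, with 1 point per library and bars for the 95% counting interval. Filled points are listed values and open points mark the level of 3 reads where a gene was not listed. FGA, FGB, FGG, FGL1 and CPS1 stand at 4.05 or above in A549 and at 0.66 or below in both HBE libraries, whereas C3 was highest in HBE.

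FGA, the alpha chain, had 832 reads in A549, a level of 54.8 rpkM (51.1 to 58.7), and was listed in neither HBE library. The floor of 3 reads is 0.178 rpkM in LIEA of HBE and 0.0834 rpkM in Smart-seq2. Against that floor FGA was at least 307-fold higher in A549 than in HBE by LIEA, and the lower limit of the counting interval of the ratio was 250-fold. With that level FGA stood at rank 1262 of 16711 genes listed in A549, within the upper 7.55%. Its difference was the 21st highest of 13574 genes with at least 10 reads in at least 1 of the LIEA libraries. The rank orders values under 3 reads at the floor.

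FGB, the beta chain, had 295 reads and 19.6 rpkM (17.4 to 21.9) in A549 and 2 reads and 0.120 rpkM (0.0145 to 0.432) in LIEA of HBE. The log2 difference was 7.35, with a counting interval from 5.49 to 10.41, and it was 6.77 with HBE at the floor. Smart-seq2 of HBE gave FGB 51 reads and 1.43 rpkM (1.06 to 1.88). The HBE libraries therefore differed for FGB: the log2 difference of LIEA minus Smart-seq2 was -3.58, with an interval from -6.66 to -1.65. With LIEA at the floor it was -2.99. Against Smart-seq2 of HBE, A549 was still higher by 3.78 on the log2 scale.

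FGG, the gamma chain, had 260 reads and 35.5 rpkM (31.4 to 40.1) in A549, 0 reads in LIEA of HBE and 3 reads in Smart-seq2 of HBE. It was at least 96.1-fold higher in A549 than in HBE by LIEA, where 3 reads would be 0.370 rpkM, with a lower limit of the interval of 77.6-fold. The 3 chains were thus all present in A549 at levels that were not equal per length. The rpkM of FGA was 2.80 times that of FGB (2.45 to 3.21) and 1.54 times that of FGG (1.34 to 1.78), and FGB was at 0.551 times FGG (0.465 to 0.653). These ratios rest on the lengths that the values carry, 3655 nt for FGA, 3628 nt for FGB and 1761 nt for FGG. A level per length changes with the splice variant that is counted, and the variants were merged by the authors.

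The genes next to the fibrinogen cluster did not show this pattern. PLRG1, a spliceosome component on the side of FGB, had 312 reads in LIEA of HBE, 179 in A549 and 571 in Smart-seq2, with log2 rpkM of 4.33, 3.68 and 4.11. LRAT, which esterifies retinol and lies on the side of FGG, had 13, 8 and 106 reads in the same order. DCHS2 had 1 read, in A549, and RBM46 had none. These are all the protein-coding genes within 500000 bp of the cluster.

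**Figure D2:**
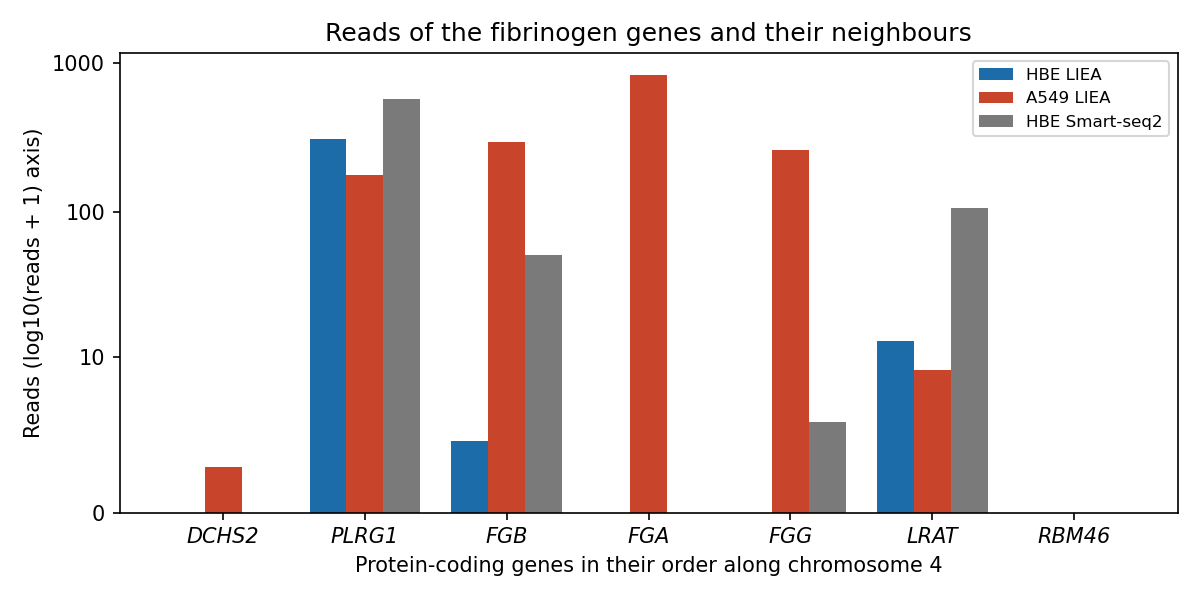
Reads of the protein-coding genes around the fibrinogen cluster, in their order along the chromosome, for the 3 libraries on an axis of log10(reads + 1). FGB, FGA and FGG have 295, 832 and 260 reads in A549 and between 0 and 51 in HBE, while PLRG1 has over 100 reads in every library. Bars are not scaled to the total of each library.

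FGL1 encodes a secreted liver protein of the fibrinogen fold that is also a ligand of the T cell receptor LAG3. It had 101 reads and 16.6 rpkM (13.5 to 20.2) in A549, 0 reads in LIEA of HBE and 4 reads in Smart-seq2 of HBE. It was at least 37.3-fold higher in A549 than in HBE by LIEA, with a lower limit of the interval of 29.8-fold. The gene lies at chr8:17721889-17767874 on the minus strand (GRCh37), away from the fibrinogen cluster. Of the 15 other proteins with a fibrinogen fold in the list, 10 were listed and 5 had enough reads to be counted. Of these, ANGPTL4, which inhibits lipoprotein lipase, was 5.03-fold higher in A549, with 136 reads against 30. TNXB, a matrix protein whose reads are uncertain because a near-identical partial copy (TNXA) exists, had 48 reads in A549 and 2 in HBE, an interval of the log2 ratio from 2.80 to 7.82. TNC, another matrix protein, was lower in A549, with 7 reads in A549 and 639 in HBE, 82.3-fold lower. FIBCD1 was 3.82-fold higher in A549, with 31 reads against 9.

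SERPINA1 encodes alpha-1-antitrypsin, the plasma inhibitor that protects the lung from neutrophil elastase. It was low in every library, with 19 reads and 1.17 rpkM (0.703 to 1.82) in LIEA of HBE, 7 reads and 0.477 rpkM (0.192 to 0.983) in A549 and 30 reads and 0.863 rpkM (0.582 to 1.23) in Smart-seq2 of HBE. The log2 difference of A549 minus HBE by LIEA was -1.29, and its counting interval from -2.78 to 0.02 includes no difference. SERPINA3 encodes alpha-1-antichymotrypsin, an inhibitor of cathepsin G. It had 16 reads and 2.42 rpkM (1.38 to 3.93) in A549 and 2 reads and 0.273 rpkM (0.0331 to 0.987) in LIEA of HBE, and was not listed in Smart-seq2. The log2 difference was 3.15, with a counting interval from 1.06 to 6.31, and it was 2.56 with HBE at the floor. Its reads rest on a length of 1590 nt, while the smallest whole reads that the values allow are 8 and 1, below the 10-read criterion. These serpins lie 221690 bp apart on chromosome 14 (GRCh37), SERPINA1 at chr14:94843084-94857030 on the minus strand and SERPINA3 at chr14:95078721-95090392 on the plus strand. A second annotated gene covers SERPINA3, and how its reads would be divided is not stated.

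Among the 19 other serpins 11 were counted, of which 4 were at least 4-fold lower in A549 and 1 was higher. Over all 13574 genes counted, 7.48% were lower and 10.8% higher. The median log2 difference of these serpins was -0.89. SERPINB5 (maspin) had 333 reads in HBE by LIEA, 7305 by Smart-seq2 and none in A549, at least 100-fold lower in A549 by LIEA. SERPINB3 and SERPINB4, near-identical squamous epithelial serpins whose reads cannot be told apart with certainty, had 209 and 83 reads in LIEA of HBE and none in A549. SERPINF1 (PEDF) was 8.30-fold lower, with 5 reads against 46.

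C3, the central protein of complement, was the only one of the 10 genes with a level at least 4-fold lower in A549. It had 2323 reads and 98.9 rpkM (94.9 to 103) in LIEA of HBE and 457 reads and 21.6 rpkM (19.6 to 23.6) in A549, a level 4.58-fold lower (4.15 to 5.08). Smart-seq2 of HBE gave 1546 reads and 30.8 rpkM (29.3 to 32.4), so the HBE libraries differed by a log2 value of 1.68 (1.59 to 1.78). Against Smart-seq2 the log2 difference of A549 was -0.51 and the 4-fold limit was no longer passed. C3 lies at chr19:6677715-6730573 on the minus strand (GRCh37). CFB, the serine protease of the alternative pathway that joins C3b, had 60 reads and 4.96 rpkM (3.78 to 6.38) in LIEA of HBE, 77 reads and 7.06 rpkM (5.57 to 8.82) in A549 and 110 reads and 4.25 rpkM (3.50 to 5.13) in Smart-seq2. The log2 difference of A549 minus HBE was 0.51 (0.00 to 1.02). The interval barely leaves out no difference, and the 3 levels lay within a narrow range. It lies at chr6:31913427-31919863 on the plus strand (GRCh37).

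Of 28 other complement components and regulators 13 were counted. At least 4-fold higher in A549 were 6 of them and lower 1, against 10.8% and 7.48% of all genes counted. The median log2 difference of the 13 was 0.34. C5, the substrate of the C5 convertase, had 645 reads in A549 and none in either HBE library, at least 238-fold higher. CLU (clusterin), which blocks the membrane attack complex, had 8731 reads and 702 rpkM in A549 against 259 reads and 18.8 rpkM in LIEA of HBE, 37.4-fold higher. CFD, the protease that cleaves factor B, was 7.85-fold higher with 170 reads against 24. C3 and C5 thus stood on opposite sides between these libraries.

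TF had 5 reads and 0.431 rpkM (0.140 to 1.01) in A549 and was not listed in HBE, where 3 reads would be 0.233 rpkM by LIEA and 0.109 rpkM by Smart-seq2. The counting interval of its log2 ratio to HBE by LIEA had a lower limit of 0.02, which barely leaves out no difference, while the level interval in A549 includes the HBE floor. With under 10 reads TF was not counted. TF lies at chr3:133464884-133515485 on the plus strand (GRCh37). TFRC, the receptor that takes up iron-loaded transferrin, had 757 reads and 34.9 rpkM in A549, 1883 reads and 78.3 rpkM in LIEA of HBE and 5877 reads and 114 rpkM in Smart-seq2. It was 2.24-fold lower in A549 than in HBE by LIEA.

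CPS1 had 679 reads and 28.4 rpkM (26.3 to 30.6) in A549, 42 reads and 1.58 rpkM (1.14 to 2.14) in LIEA of HBE and 68 reads and 1.20 rpkM (0.931 to 1.52) in Smart-seq2 of HBE. It was 17.9-fold higher in A549 (13.1 to 25.1) by LIEA. The HBE libraries did not differ in CPS1 beyond counting error, with a log2 difference of 0.40 (-0.19 to 0.98). CPS1 lies at chr2:211342406-211543831 on the plus strand (GRCh37). The other urea cycle genes were listed with 2 related enzymes, CAD and GLUL, which are not of the cycle. Of these 10 genes 8 were counted, none was at least 4-fold higher in A549 and 2 were lower. The shares of all genes counted were 10.8% higher and 7.48% lower. The median log2 difference of the 8 was -1.53. ASS1, which condenses citrulline with aspartate, had 68 reads in A549 and 432 in LIEA of HBE, 5.73-fold lower. ARG2, the mitochondrial arginase, was 4.26-fold lower with 22 reads against 104. GLUL (glutamine synthetase) was 2.96-fold lower with 282 reads against 925. ASL, which splits argininosuccinate, had 124 reads in A549 and 123 in HBE by LIEA, a log2 difference of 0.16 (-0.21 to 0.53). OTC and ARG1 were not listed in any library. NAGS, which makes the activator of CPS1, had 1 read in A549 and 12 in HBE by LIEA, with an interval of the log2 ratio from -8.85 to -0.68.

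Across the 10 genes, 9 were counted in the comparison of A549 with HBE by LIEA, and TF had too few reads. At least 4-fold higher in A549 were 6 (FGA, FGB, FGG, FGL1, SERPINA3 and CPS1), where 10.8% of the 13574 genes were. At least 4-fold lower was 1 (C3), where 7.48% of the genes were. The median log2 difference of the 9 was 4.16, against -0.13 for all genes counted. FGA, FGB, FGG, FGL1 and SERPINA3 reached 10 reads in A549 and not in LIEA of HBE, so a difference was a condition of their being counted. The middle 90% of all genes lay between -2.61 and 3.21, and FGA, FGB, FGG, FGL1 and CPS1 lay above it.

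**Figure D3:**
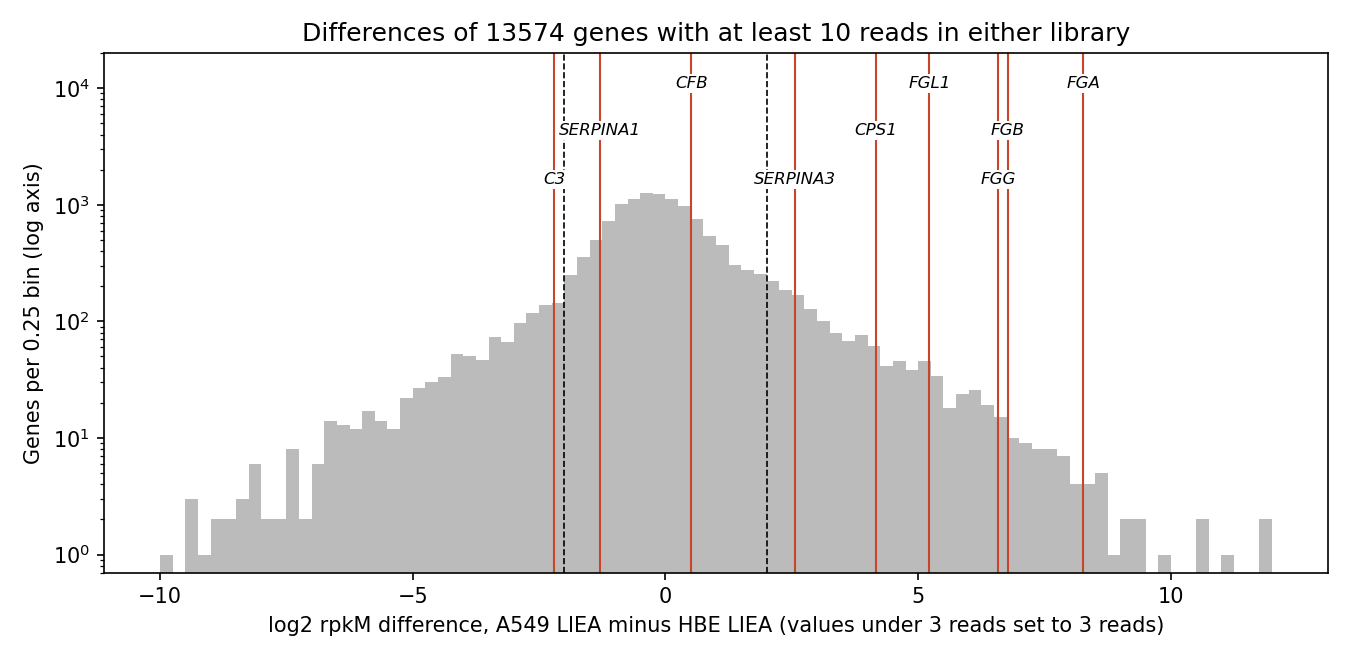
Histogram of the log2 rpkM difference, A549 LIEA minus HBE LIEA, over the 13574 genes with at least 10 reads in either library, with a log axis for the number of genes. Red lines mark 9 of the 10 genes and dashed lines a 4-fold difference. FGA, FGB, FGG, FGL1 and CPS1 lie in the upper tail, CFB near the centre and C3 just beyond the lower dashed line.

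Other plasma proteins were counted in a list of 34 genes. In A549 18 of them were listed and in LIEA of HBE 6. Of the 9 counted, 7 were at least 4-fold higher in A549 and 1 was lower, against 10.8% and 7.48% of all genes counted. Their median log2 difference was 3.85. Of the 7, all but CP had at most 1 read in HBE by LIEA, so they were counted through their reads in A549. VTN (vitronectin), an adhesive plasma protein, had 609 reads and 87.4 rpkM in A549, above every one of the 10 genes there, with 1 read in HBE by LIEA and 11 by Smart-seq2. The interval of its log2 ratio by LIEA was from 6.92 to 14.71. RBP4, the plasma carrier of retinol, had 66 reads in A549 and none in HBE, at least 24.4-fold higher. APOE was at least 18.1-fold higher with 49 reads and APOH at least 15.5-fold with 42 reads, both without reads in LIEA of HBE. Some other secreted products of hepatocytes in this list were at or near 0 in A549. ALB had 2 reads in A549, TTR 1, AHSG 4 and HP 2, and APOA1 and APOA2 had none. Of 8 hepatocyte markers 6 were listed in A549 and none had 10 reads there, with a summed level of 2.90 rpkM in A549, 1.42 in LIEA of HBE and 1.88 in Smart-seq2. ALB, APOA1, APOA2, TTR, AHSG and HP belong to the list of 34 as well.

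In the list of coagulation and fibrinolysis 15 of 28 genes were counted, with a median log2 difference of 1.88. At least 4-fold higher in A549 were 7 and lower 3, against 10.8% and 7.48% of all genes counted. TFPI, the inhibitor of the tissue factor pathway, was 31.5-fold higher with 454 reads against 16. PROC (protein C), an anticoagulant protease, had 66 reads in A549 and 2 in LIEA of HBE, an interval of the log2 ratio from 3.28 to 8.27. F3 (tissue factor), which starts clotting, was 45.4-fold lower with 21 reads against 1057. PLAT (tissue plasminogen activator), which starts fibrin breakdown, was 22.0-fold lower with 7 reads against 171. F3 also differed between the methods in HBE, with 30275 reads and 1285 rpkM in Smart-seq2 against 95.9 rpkM in LIEA.

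**Figure D4:**
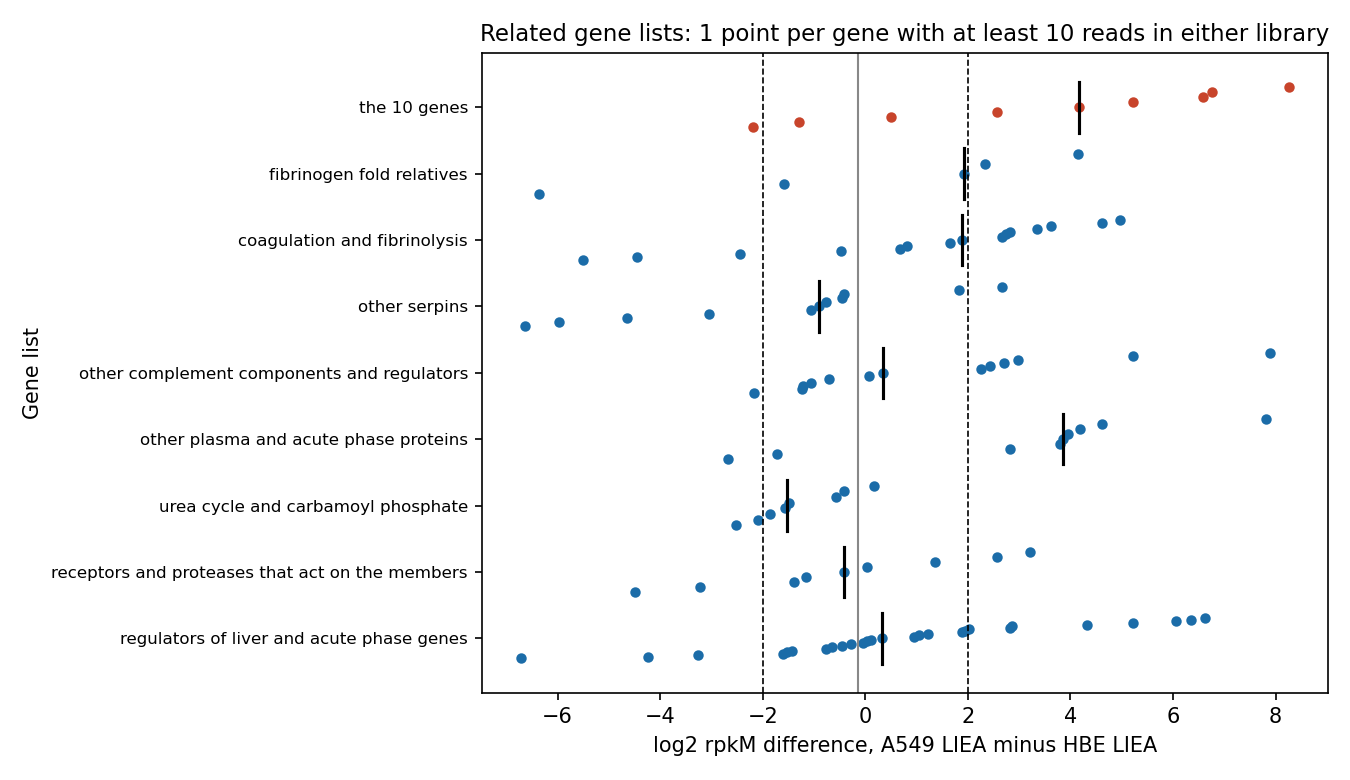
Log2 rpkM difference, A549 LIEA minus HBE LIEA, with 1 point for each gene that has at least 10 reads in either library, by gene list. Black bars are list medians, the grey line is the median of all genes and dashed lines mark a 4-fold difference. Plasma proteins have a median of 3.85, other serpins of -0.89 and the urea cycle of -1.53.

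The regulators of liver and acute phase genes were described next. Of 32 genes 27 were counted, with a median log2 difference of 0.33. At least 4-fold higher in A549 were 8 and lower 3, against 10.8% and 7.48% of all genes counted. The liver-enriched transcription factors HNF4A and FOXA2 were among the 8. FOXA2 had 267 reads in A549 and none in HBE, at least 98.7-fold higher. HNF4A was 37.2-fold higher with 369 reads against 11. FOXA1, a relative of FOXA2 in airway epithelium, was 1.58-fold lower with 213 reads against 372.

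The cytokine IL6 had 32 reads in HBE by LIEA, 265 by Smart-seq2 and none in A549, at least 9.62-fold lower in A549 by LIEA. STAT3, the factor that carries the interleukin-6 signal, had 1008 reads in A549 and 1086 in HBE by LIEA, a log2 difference of 0.04 (-0.08 to 0.17). The receptor chains IL6R and IL6ST were 1.93-fold and 2.06-fold higher in A549. CEBPD was 3.85-fold higher with 125 reads against 36. CEBPA, with 111 reads against 98, gave a log2 difference of 0.33 (-0.08 to 0.74). CEBPB was 2.71-fold lower with 619 reads against 1859, but it had only 23 reads in Smart-seq2 of HBE, so that its HBE level was 191 rpkM by LIEA and 1.11 by Smart-seq2. IL1B, a cytokine of the interleukin-1 arm, had 6 reads in A549 and 700 in LIEA of HBE, 105-fold lower.

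In the list of receptors and proteases that act on these proteins 9 of 16 genes were counted, with a median log2 difference of -0.41. At least 4-fold higher in A549 were 2 and lower 2, against 10.8% and 7.48% of all genes counted. TFR2, the transferrin receptor known from liver, had 25 reads in A549 and none in HBE, at least 9.24-fold higher. LAG3, the receptor of FGL1, had 16 reads in A549 and 3 in LIEA of HBE, an interval of the log2 ratio from 0.76 to 4.99. ICAM1, which binds fibrinogen, was 22.5-fold lower with 5 reads against 125. CR2, a receptor of C3 fragments, had 31 reads in HBE by LIEA and none in the other libraries, at least 9.32-fold lower in A549.

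The labels were checked against markers. Of 6 airway basal markers 5 were at least 4-fold lower in A549 than in HBE by LIEA, where 7.48% of all genes counted were. The summed level of the 6 markers was 13.6 rpkM in A549, 1741 in HBE by LIEA and 6483 by Smart-seq2. KRT5, the basal keratin, was at 552 rpkM in LIEA of HBE and 1.88 in A549. Epithelial markers were present in all libraries, but not at equal levels. By LIEA, KRT8 was at 3957 rpkM in A549 and 506 in HBE, and KRT18 at 4302 and 743. EPCAM was 7.84-fold lower in A549, at 7.29 against 57.1 rpkM, and CDH1 was 2.95-fold lower, at 19.4 against 57.1 rpkM. Fibroblast markers summed to between 1.46 and 6.41 rpkM, most of it COL1A1, and COL1A2 and DCN were not listed. Leukocyte markers summed to between 50.1 and 55.3 rpkM from CD14, LYZ and CD68, while PTPRC had at most 3 reads and CD3E was not listed. Endothelial markers summed to between 0.606 and 11.8 rpkM, most of it CDH5 and PECAM1, and TEK and CLDN5 were not listed. The part of other cells in the results above was not tested. In RNA from many cells, fewer expressing cells and less RNA per cell cannot be told apart.

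The second question was how the library methods compare for these genes in the same cells. Of the 10 genes 5 were counted between LIEA and Smart-seq2 of HBE. None was at least 4-fold higher in LIEA, where 14.9% of 13499 genes were, and 1 (FGB) was at least 4-fold lower, where 5.19% were. These shares depend on depth, since the floor of 3 reads is 0.651 RPM in LIEA of HBE and 0.305 RPM in Smart-seq2. A gene read only in LIEA therefore passes 4-fold with fewer reads than a gene read only in Smart-seq2. The median log2 difference of the 5 was 0.40, against 0.04 for all genes counted. C3 was 3.21-fold higher in LIEA. SERPINA1, with a log2 difference of 0.44 (-0.47 to 1.31), and CFB, with 0.22 (-0.26 to 0.69), did not differ beyond counting error. FGA and TF were listed in neither HBE library, and FGG, FGL1 and SERPINA3 were at no more than 4 reads in either, so no fold is given for them. Both comparisons use LIEA of HBE, so they are not independent of each other. With Smart-seq2 as the HBE library, 9 of the genes were counted against A549 by LIEA. At least 4-fold higher in A549 were 6, where 21.2% of 14216 genes were, and none was lower, where 11.8% were. The same limit holds for these shares, with the floor at 0.722 RPM in A549. Cell line and library method cannot be told apart in that comparison.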

How the data were processed

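Gene expression values of 3 libraries were analysed, 1 per condition, grouped by the labels. The authors filtered Ion Torrent reads by length and quality, used FANSe2 for mapping to RefSeq-RNA, merged splice variants and deposited log2 rpkM per gene, with no pseudocount and with genes without reads left out. FANSe2's version is not given in the sources used here. The labels name hg19.

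Blank rows (1589 in Smart-seq2) and 4 rows per library with repeated names were left out. Because rpkM is reads over length and total, totals and reads were recovered. The ratio of totals was the most frequent ratio of values, and the largest whole total was taken at which over 70% of 300 low genes had a length within 5e-05 nt of a whole number (96.7% did). A gene's length was the smallest that gave whole reads in each library, times a whole factor up to 12 chosen from GENCODE transcript lengths. The factor was above 1 for 878 of 18856 genes, SERPINA3 included. Recovered reads summed to between 96.83 and 97.08% of each total. Total reads of 4154060 to 9845150 put the 3-read floor at 0.305 to 0.722 reads per 1000000 mapped reads. The recovery and the fold counts were tested on simulated data.

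Genes with at least 10 reads in at least 1 of the compared libraries were counted, with reads under 3 set to 3, and a 4-fold difference of rpkM was the limit. No test between conditions was made. From each list, up to 4 genes with the largest absolute log2 difference are named, with TFRC and a set of known regulators whatever their value. Some of these genes, and a promoter motif, are not reported here. Of these lists, single members beyond that rule (ALB, TTR, AHSG, HP, CP, IL6, ASL, CAD, OTC, ARG1 and cell type markers) were named after their values were seen. The 10 genes and the lists were chosen with earlier results of these data known. Alternatives are given in the closing section. The scripts ran under Python 3.11.15 with pandas 2.3.3, numpy 2.4.6, matplotlib 3.10.9 and scipy 1.17.1.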

Additional observations from a re-analysis of the deposited data

How the results depend on the processing

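No paired analysis was possible because the groups hold a single library each. No library could be left out for that reason. Of 70 alternative values of the single genes, 58 stayed within the counting interval, 12 moved beyond it and none of a called gene changed sign. Of the 58, 15 came from the smallest whole reads. For every gene but SERPINA3 these equal the main values by construction, so their staying tests nothing. With log2(rpkM + 1) the differences of A549 minus HBE were 5.80 for FGA, 4.20 for FGB, 5.19 for FGG, 4.14 for FGL1 and 3.51 for CPS1, and that of LIEA minus Smart-seq2 for FGB was -1.12, since a pseudocount shrinks low values. Centring on the median difference (-0.16 between cell lines, 0.10 between methods) gave C3 -2.04 between cell lines and 1.59 between methods, and TPM gave -2.36 and 1.88. Against Smart-seq2 of HBE, FGB was 3.78 and C3 -0.51, and the count of these genes lower in A549 went from 1 to 0. Over all genes that reference, added after seeing the data, gave 3011 higher and 1682 lower in A549. With 2-fold as the limit, 2 were lower in A549 and 1 was higher in LIEA than in Smart-seq2. With a minimum of 100 reads none (0) was lower in LIEA. Over all genes, 2-fold gave 2740 higher and 2842 lower in A549, and 3840 higher and 2923 lower in LIEA, while 100 reads gave 576 and 512 in A549 and 1216 higher in LIEA. With the smallest whole reads 5 of the 10 genes were at least 4-fold higher in A549, because SERPINA3 fell under 10 reads. Its log2 difference, with HBE at the floor, was then 1.56, which is also under the 4-fold limit. Depth limits SERPINA1, SERPINA3 and TF, which had at most 30 reads.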

Other observations

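Among 5244 genes with at least 100 reads in all 3 libraries, the genes nearest to CPS1 in pattern were BLVRB, at a root mean square difference of 0.13 on the log2 scale after centring each gene, and IGFBP4, at 0.17. BLVRB (biliverdin reductase B) had log2 rpkM of 5.29 in LIEA of HBE, 9.38 in A549 and 5.11 in Smart-seq2. Nearest to C3 were PHLDB1, at 0.06, and FADS3, at 0.06. Nearest to CFB were PCK2, at 0.02, and OPA3, at 0.02. With 3 libraries such closeness is a description only. SERPINA1 has fewer than 10 reads in A549 and was not compared in this way.

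The other clade A serpin genes between and beside SERPINA1 and SERPINA3 were near 0. SERPINA6 (the plasma carrier of cortisol) had 6 reads, in A549. SERPINA10 had 1 read in A549 and 4 in Smart-seq2 of HBE, SERPINA5 had 1 in LIEA of HBE and 2 in A549, and SERPINA9 had 1 in Smart-seq2. SERPINA2, SERPINA4, SERPINA11 and SERPINA12 were not listed. In the same region, DDX24, an RNA helicase, had 953 reads in LIEA of HBE, 570 in A549 and 1963 in Smart-seq2.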
